A study of Apis mellifera with 12 samples.

Results

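The genes described here are 5 odorant receptor genes of the honey bee, Apis mellifera, that carry nearly consecutive identifiers in the gene counts of queen brains. They are GB52375 and GB52376, both matched by the study to the Drosophila receptor Or43a, and GB52377, GB52378 and GB52380, matched to Or13a, Or85c and Or85b in that order. They are taken as a set by identifier and by the study's fly matches, and are 5 of the 15314 genes counted. The study had itself named receptors with these fly matches as differing between these queens, so the set was not chosen independently of the values. RNA was sequenced from single brains of 12 sister queens reared from 1 source colony, with 4 queens in each of 3 groups. Mated queens had flown and mated at 6 days of age. CO2-treated queens had been caged and kept for 10 min under CO2 narcosis at 6 and again at 7 days of age, which can start egg laying without mating. Virgin queens had been caged with the CO2-treated ones and returned without narcosis. All queens were sacrificed at 8 days of age. The queens are separate animals, all sisters from a single colony, and the mated group differs from the others in flight and caging as well as in mating. By the study's dissections, mated queens had developing eggs and stored semen, and neither CO2-treated nor virgin queens did.

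Odorant receptors of insects are membrane proteins that join a shared co-receptor, Orco, to form an ion channel opened by odours. They are made mostly in the sensory neurons of the antennae, whose axons end in the antennal lobe of the brain, and an olfactory neuron commonly uses a single receptor type beside Orco. In Drosophila, Or43a responds to cyclic and aromatic odours such as cyclohexanol and benzaldehyde, Or13a responds to octenol, Or85b responds to heptanone, and Or85c is used by olfactory neurons of the larva. The receptor family has expanded in bees, often in runs of neighbouring genes, so a best match in the fly does not give the odour that a bee receptor binds. No sequences or genome positions of the receptors are printed, since no genome of the build used for counting (Amel 4.5) was used here, and whether consecutive identifiers are neighbours on a chromosome was not analysed.

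All 5 receptors had their lowest mean level in the brains of mated queens. Summed over the 5 genes, the level in mated queens 1, 4, 6 and 7 was 7.27, 4.54, 3.74 and 3.34 CPM (gene counts relative to the size of the library, after scaling between libraries by the trimmed mean of M values, TMM). CO2-treated queens 1, 2, 5 and 7 had sums of 38.1, 26.7, 25.3 and 16.5 CPM. Virgin queens 1, 2, 4 and 6 had sums of 18.0, 35.9, 26.7 and 14.1 CPM. The mated range was below both other ranges, and the ranges of CO2-treated and virgin queens overlapped. The mean sum was 4.72 ± 1.77 CPM in mated, 26.7 ± 8.87 CPM in CO2-treated and 23.7 ± 9.69 CPM in virgin queens (SD, n = 4 each). These are low levels: all 4 mated queens together gave 267 counts over the 5 genes, against 1930 counts in the CO2-treated and 1753 counts in the virgin queens. In whole-brain RNA, fewer cells that express a receptor and less receptor RNA per cell cannot be told apart.

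The make-up of the libraries differed between the groups. Libraries held 12434733 to 20677514 counts on genes, and GB49544, a gene without a name in the sources used here, took 13.7 to 42.7% of them in mated, 1.12 to 5.02% in CO2-treated and 0.153 to 2.89% in virgin queens. The 2 genes of hexamerin storage proteins, which the fat body secretes into the haemolymph, summed to 184 to 3064 CPM in mated, 58.6 to 265 CPM in CO2-treated and 43.9 to 70.2 CPM in virgin queens. GB49544 and these 2 genes were used as a list of fat body and haemolymph markers. No annotation in the sources used here places GB49544 there. In mated over virgin queens 1 of the 3, GB51698, rose (adjusted p = 0.0212 by edgeR), and over CO2-treated queens 0 passed. All 3 were higher in mated queens in both contrasts and below 0.05 before adjustment (3 and 3), and DESeq2 called 2 and 3. Among all 13038 genes tested, edgeR called 157 and 86 in these contrasts and DESeq2 640 and 421, and 2072 and 1805 were below 0.05 before adjustment. Mated queen 1 had the lowest GB49544 share and the lowest hexamerin sum among mated queens and the highest sum of the receptors. The 5 receptors were also summed with GB49544 left out of the library totals and without TMM scaling. The ranges were then 3.28 to 8.64 CPM in mated, 19.5 to 49.6 CPM in CO2-treated and 15.5 to 49.3 CPM in virgin queens. The mated range was below both others. The part of GB49544, the hexamerin genes and the make-up of the libraries in the receptor differences was not tested.

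**Figure D1:**
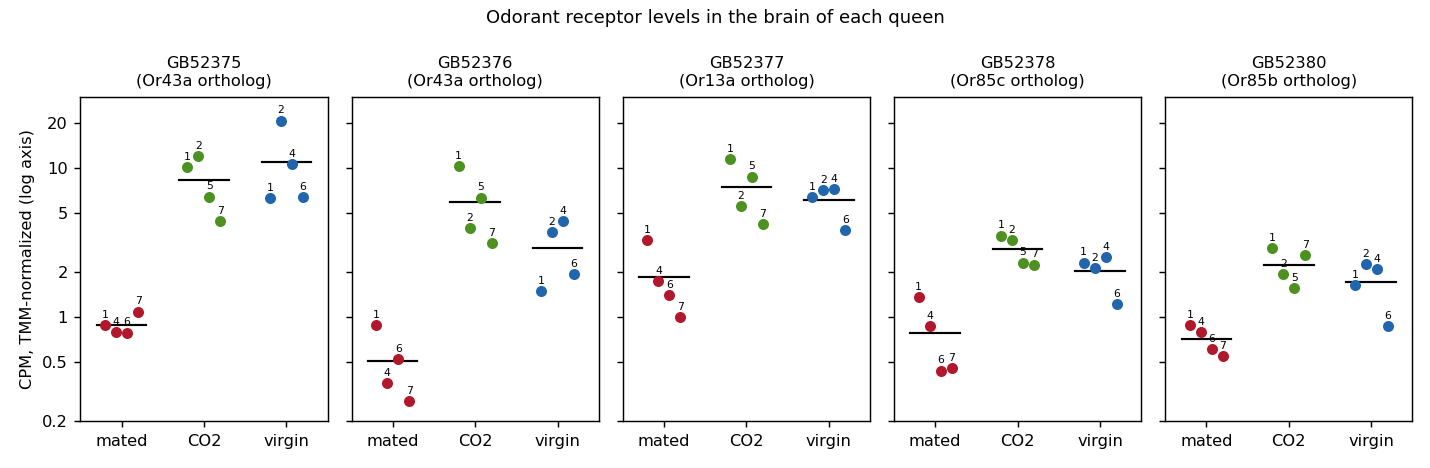
Level of each receptor gene in each of the 12 brains, in TMM-normalized CPM on a log axis; points are single queens with their number, and horizontal lines are group means. The 4 mated queens lie below every CO2-treated queen in all 5 panels, and below every virgin queen in the panels of GB52375, GB52376 and GB52377.

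GB52375 fell in mated queens against both other groups, and had the most counts of the 5 receptors in virgin queens, 47 in all mated, 602 in CO2-treated and 818 in virgin queens. Such totals also rise with the length of a transcript, which was not used here. Its level was 0.879, 0.793, 0.783 and 1.08 CPM in mated queens 1, 4, 6 and 7, from 15, 11, 9 and 12 counts. It was 10.1, 12.01, 6.41 and 4.39 CPM in CO2-treated queens 1, 2, 5 and 7, and 6.25, 20.7, 10.6 and 6.31 CPM in virgin queens 1, 2, 4 and 6. The mated queens stood below all other queens, while virgin queen 2 was the highest of all 12. From these few counts, the 95% intervals of counting error in mated queens ran from 0.358 to 1.89 CPM. The closeness of the mated levels to each other is therefore uncertain. Mean levels were 0.885 ± 0.140 CPM in mated, 8.23 ± 3.46 CPM in CO2-treated and 10.96 ± 6.81 CPM in virgin queens (SD, n = 4 each). By the quasi-likelihood F-test of edgeR across all tested genes, with Benjamini-Hochberg adjustment, GB52375 was 12.3-fold lower in mated than in virgin queens (log2 fold change -3.63 ± 0.47 SE, adjusted p = 0.00500). It was 9.25-fold lower in mated than in CO2-treated queens (-3.21 ± 0.47, adjusted p = 0.00914 by edgeR).

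GB52376, the other gene matched to Or43a, also fell in mated queens. Mated queens 1, 4, 6 and 7 had 0.879, 0.360, 0.522 and 0.271 CPM, from 15, 5, 6 and 3 counts. CO2-treated queens 1, 2, 5 and 7 had 10.3, 3.95, 6.29 and 3.14 CPM. Virgin queens 1, 2, 4 and 6 had 1.49, 3.70, 4.38 and 1.94 CPM. No mated queen reached the level of any queen in the other groups, and CO2-treated queen 1 stood highest. The means were 0.508 ± 0.268 CPM in mated, 5.91 ± 3.19 CPM in CO2-treated and 2.88 ± 1.39 CPM in virgin queens (SD, n = 4 each). In edgeR's test GB52376 was 5.46-fold lower in mated than in virgin queens (log2 fold change -2.45 ± 0.52 SE, adjusted p = 0.0393) and 11.1-fold lower in mated than in CO2-treated queens (-3.48 ± 0.53, adjusted p = 0.0115).

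GB52375 and GB52376 share a best match in the fly, and although the study states that nearly all reads aligned to a single place in the genome, how the rest were assigned is not given in the sources used here, so their separate values are uncertain where their sequences are alike. The counts of GB52376 were 25 to 100% of those of GB52375 in mated queens, 32.9 to 101% in CO2-treated queens and 17.9 to 41.5% in virgin queens. The 2 genes thus did not keep a fixed ratio from queen to queen, and the ranges of the groups overlapped.

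GB52377, matched to Or13a, was lower in mated queens without overlap but did not pass the test. It had the most counts of the 5 in mated queens, 107, against 532 in CO2-treated and 449 in virgin queens. Its level was 3.28, 1.73, 1.39 and 0.994 CPM in mated queens 1, 4, 6 and 7. It was 11.4, 5.51, 8.72 and 4.17 CPM in CO2-treated queens 1, 2, 5 and 7, and 6.35, 7.10, 7.19 and 3.80 CPM in virgin queens 1, 2, 4 and 6. Mated queens did not overlap either group, although mated queen 1 came close to virgin queen 6. Averages were 1.85 ± 1.001 CPM in mated, 7.44 ± 3.24 CPM in CO2-treated and 6.11 ± 1.58 CPM in virgin queens (SD, n = 4 each). The differences did not pass the threshold of 0.05 by edgeR: the log2 fold change was -1.70 ± 0.42 SE (adjusted p = 0.0725) for mated over virgin queens and -1.98 ± 0.42 SE (adjusted p = 0.0531) for mated over CO2-treated queens.

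GB52378, matched to Or85c, had 1.35, 0.865, 0.435 and 0.452 CPM in mated queens 1, 4, 6 and 7. CO2-treated queens 1, 2, 5 and 7 had 3.50, 3.27, 2.31 and 2.24 CPM, and virgin queens 1, 2, 4 and 6 had 2.31, 2.12, 2.53 and 1.22 CPM. All mated queens were below all CO2-treated ones, but mated queen 1 exceeded virgin queen 6. Group means were 0.775 ± 0.431 CPM in mated, 2.83 ± 0.649 CPM in CO2-treated and 2.04 ± 0.574 CPM in virgin queens (SD, n = 4 each). Neither contrast passed in edgeR, with log2 fold changes of -1.36 ± 0.40 SE (adjusted p = 0.124) over virgin and -1.82 ± 0.40 SE (adjusted p = 0.0614) over CO2-treated queens.

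GB52380, matched to Or85b, had 39 counts in all mated, 168 in CO2-treated and 127 in virgin queens. Mated queens 1, 4, 6 and 7 had 0.879, 0.793, 0.609 and 0.542 CPM. CO2-treated queens 1, 2, 5 and 7 had 2.88, 1.92, 1.56 and 2.60 CPM, and virgin queens 1, 2, 4 and 6 had 1.64, 2.27, 2.08 and 0.861 CPM. As for GB52378, the mated and CO2-treated queens were separate, and mated queen 1 stood just above virgin queen 6. The average was 0.706 ± 0.157 CPM in mated, 2.24 ± 0.605 CPM in CO2-treated and 1.71 ± 0.625 CPM in virgin queens (SD, n = 4 each). The log2 fold change by edgeR was -1.26 ± 0.37 SE (adjusted p = 0.124) for mated over virgin and -1.64 ± 0.37 SE (adjusted p = 0.0699) for mated over CO2-treated queens.

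Counted over the genes, 2 of the 5 receptors (GB52375 and GB52376) passed in mated over virgin queens, both lower, where 0.253% of the 13038 genes tested were called lower. Because the study picked receptors with these fly matches from the same queens, these shares are a description and not independent evidence. Of the 5, 3 had mated queens all below virgin queens, against 2.48% of all genes. The median log2 fold change was -1.70 over the 5 receptors and -0.08 over all genes tested. In mated over CO2-treated queens the same 2 receptors were called lower, against 0.138% of all genes, and 5 of 5 had groups that did not overlap, against 5.33% of all genes. The median log2 fold change there was -1.98 over the receptors and -0.03 over all genes. Of all genes called, 21.02% were lower over virgin and 20.9% lower over CO2-treated queens, but 96.4% and 75.3% were lower when library totals were used without TMM. That scaling moved the medians of all genes to -0.79 and -0.67, and those of the 5 receptors to -2.33 and -2.53. The 2 contrasts share the mated queens and are not independent of each other. Before adjustment, edgeR gave 5 of 5 receptors a p below the same threshold in both contrasts, along with 2072 and 1805 of the 13038 genes.

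The calls moved with the queens kept in the fit. Leaving out each of the 12 queens in turn gave 1 to 4 receptors past the threshold in mated over virgin queens and 1 to 4 in mated over CO2-treated queens. Without mated queen 1, the highest mated queen for 4 of the 5 receptors by level, 4 receptors passed in both contrasts, and without virgin queen 6, 4 passed over virgin queens. The count was 1 over virgin queens without mated queen 4, 6 or 7, CO2-treated queen 2 or 5, or virgin queen 2 or 4, and 1 over CO2-treated queens without mated queen 6 or 7. CO2-treated queens 2 and 5 are not part of the contrast over virgin queens. Without them in turn, GB52376 stayed at a log2 fold change of -2.45 there, with adjusted p = 0.0575 and 0.0615 by edgeR. The groups share an estimate of the spread, so such a call can be lost without a change in the queens compared. GB52375 passed in 12 of the 12 fits in each contrast, and GB52376 in 5 of 12 over virgin and 10 of 12 over CO2-treated queens. These counts include fits without a queen of the third group. Among all genes the calls also went up in those fits, to 260 over virgin and 179 over CO2-treated queens without mated queen 1 and to 279 over virgin queens without virgin queen 6, against 157 and 86 with all queens. With the Wald test of DESeq2, all 5 receptors were called lower in both contrasts, where it called 1.46% of all genes lower over virgin and 0.851% over CO2-treated queens.

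The titles of 4 libraries (mated queen 1, CO2-treated queens 1 and 2, and virgin queen 1) end in br, which the labels do not explain. Mated queen 1 and CO2-treated queen 1 had the highest receptor sums of their groups, and virgin queen 1 did not. With the tag as a term in the fit, 3 receptors passed over virgin and 2 over CO2-treated queens by edgeR. In the 8 libraries without it, 2 passed over virgin and 0 over CO2-treated queens, of which 2 are left; GB52375 was then at -2.64 (adjusted p = 0.129) and GB52376 at -3.63 (adjusted p = 0.0602 by edgeR) over CO2-treated queens. The tagged libraries hold too few queens for a fit of their own.

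**Figure D2:**
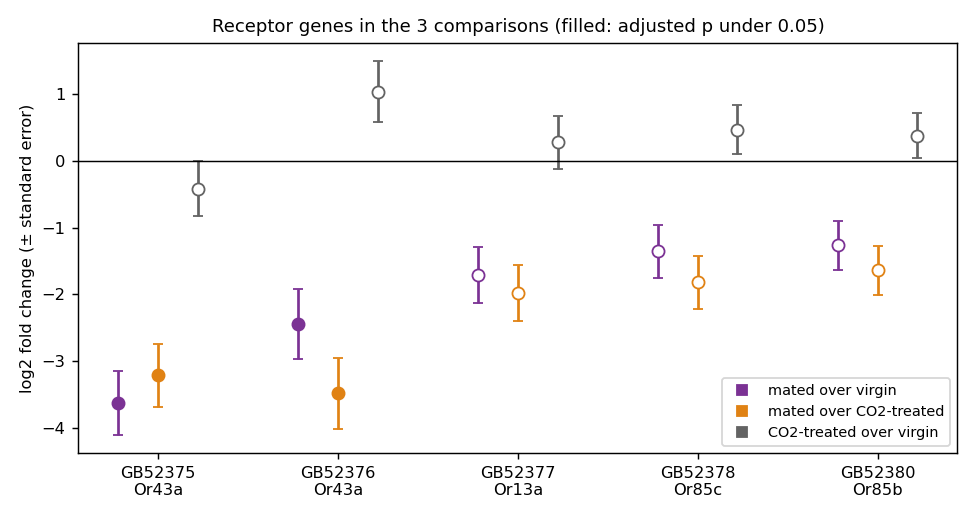
Log2 fold change of each receptor gene with its standard error in the 3 comparisons, from edgeR; filled symbols passed an adjusted p of 0.05 and open symbols did not. Mated queens are below 0 for all 5 genes against both other groups, and the CO2-treated over virgin values lie between -0.42 and 1.03.

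CO2-treated queens were compared with virgin queens to separate narcosis from mating. None of the 5 receptors passed in that comparison by edgeR, where 0.0153% of genes were called in either direction and 758 genes had an unadjusted p below 0.05. DESeq2 also called 0 of the 5. No receptor had groups that did not overlap, against 4.43% of all genes in either direction. GB52376 alone of the 5 was below that threshold before adjustment. Its log2 fold change was 1.03 (95% interval 0.05 to 2.01, adjusted p = 0.832 by edgeR). The other intervals were -1.29 to 0.46 for GB52375, -0.57 to 1.13 for GB52377, -0.33 to 1.25 for GB52378 and -0.35 to 1.11 for GB52380. These intervals reach beyond a 2-fold change for all 5 receptors, so differences of that size remain possible with 4 queens in each group. The sign for GB52375 rested on virgin queen 2: its log2 fold change was -0.42 with all queens and 0.093 without that queen.

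The make-up of the receptor counts differed from queen to queen. GB52375 took 20.7 ± 8.61% of the counts on the 5 genes in mated queens, 30.9 ± 9.46% in CO2-treated queens and 44.1 ± 9.92% in virgin queens (SD, n = 4 each). Its lowest share was 12.1% in a mated queen and its highest 57.7% in a virgin queen. GB52376 took 10.5 ± 2.99% in mated, 21.4 ± 5.52% in CO2-treated and 12.2 ± 3.61% in virgin queens. GB52377 took 37.5 ± 6.31%, 27.5 ± 5.95% and 27.2 ± 6.32% in mated, CO2-treated and virgin queens. GB52378 averaged 15.7% in mated, 11.04% in CO2-treated and 9.19% in virgin queens, and GB52380 averaged 15.5%, 9.16% and 7.32% in the same order of groups. Shares of a fixed total move against each other, and no test was made on them. They were taken over counts, so a longer transcript has a larger share at the same number of molecules.

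**Figure D3:**
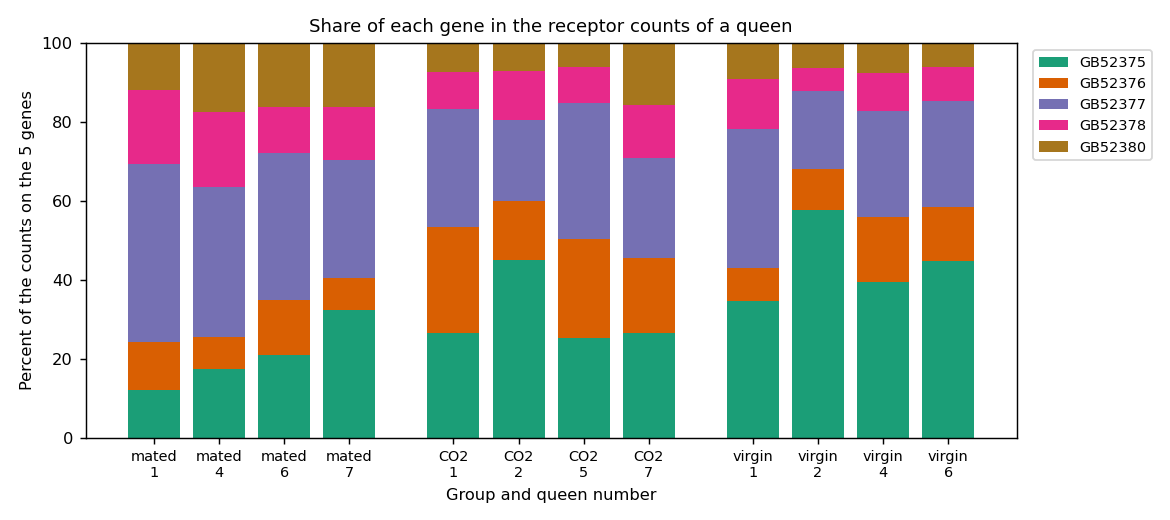
Share of each receptor gene, in percent, of the counts on the 5 genes in each queen; each bar is 1 queen and sums to 100. GB52375 takes 12.1 to 32.4% in mated, 25.3 to 45.03% in CO2-treated and 34.7 to 57.7% in virgin queens.

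The receptors also varied together. Over the 12 queens, the log2 levels of pairs of receptors had Pearson correlations of 0.83 to 0.94 (10 pairs), and of 0.32 to 0.82 after the mean of each group was taken out. Each receptor was compared with the mean of the other 4, and ranked by its correlation among all 13034 genes left. The ranks were 2 for GB52377, 5 for GB52376, 6 for GB52378, 9 for GB52380 and 24 for GB52375, with correlations of 0.87 to 0.95. After removal of group means the correlation was 0.80 for GB52377 and 0.45 for GB52375, whose ranks were then 44 and 2194. These values describe 12 libraries that share the group differences and the scaling, and carry no test.

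GB52379, the number missing from the run of receptors, has no annotation in the sources used here. Its level was 1.99, 1.73, 1.22 and 0.723 CPM in mated queens 1, 4, 6 and 7, against 5.31, 3.90, 2.25 and 2.33 CPM in CO2-treated queens 1, 2, 5 and 7. Virgin queens 1, 2, 4 and 6 had 1.59, 2.66, 4.66 and 1.58 CPM. Mated queens were below all CO2-treated queens but overlapped the virgin queens. The log2 fold change was -0.87 over virgin (adjusted p = 0.365) and -1.26 over CO2-treated queens (adjusted p = 0.243 by edgeR), so it passed in neither. Its correlation with the mean of the 5 receptors was 0.84 over all queens and 0.84 with group means removed, where it ranked 21 of 13033 genes.

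Along the identifiers, the log2 fold changes of mated over virgin queens were -3.63, -2.45, -1.70, -1.36, -0.87 and -1.26 from GB52375 through GB52380, with GB52379 included. Those of mated over CO2-treated queens were -3.21, -3.48, -1.98, -1.82, -1.26 and -1.64. Over virgin queens GB52375 was the lowest and over CO2-treated queens GB52376, and in both contrasts GB52379 was closest to 0. On the lower side, GB52374 was separate from both other groups as well, with log2 fold changes of -1.24 over virgin (adjusted p = 0.133) and -1.43 over CO2-treated queens (adjusted p = 0.121 by edgeR). On the upper side, GB52383 was separate from virgin queens at -1.22. Among the 45 other genes numbered GB52350 to GB52400, 43 were tested and 0 passed by edgeR in any of the 3 comparisons. They include GB52362, matched to Or49b, which is counted again among the other receptors named by the study below. Before adjustment 4 of the 43 were below 0.05 over virgin, 8 over CO2-treated and 5 in CO2-treated over virgin queens. DESeq2 called 0, 2 and 0. Among all 13038 genes tested, 2072, 1805 and 758 were below 0.05 before adjustment in the same order, and DESeq2 called 640, 421 and 20. Of the 43 genes in this range, 30 had a negative log2 fold change over virgin queens (median -0.45) and 27 over CO2-treated queens (median -0.23). The medians for all genes were -0.08 and -0.03.

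**Figure D4:**
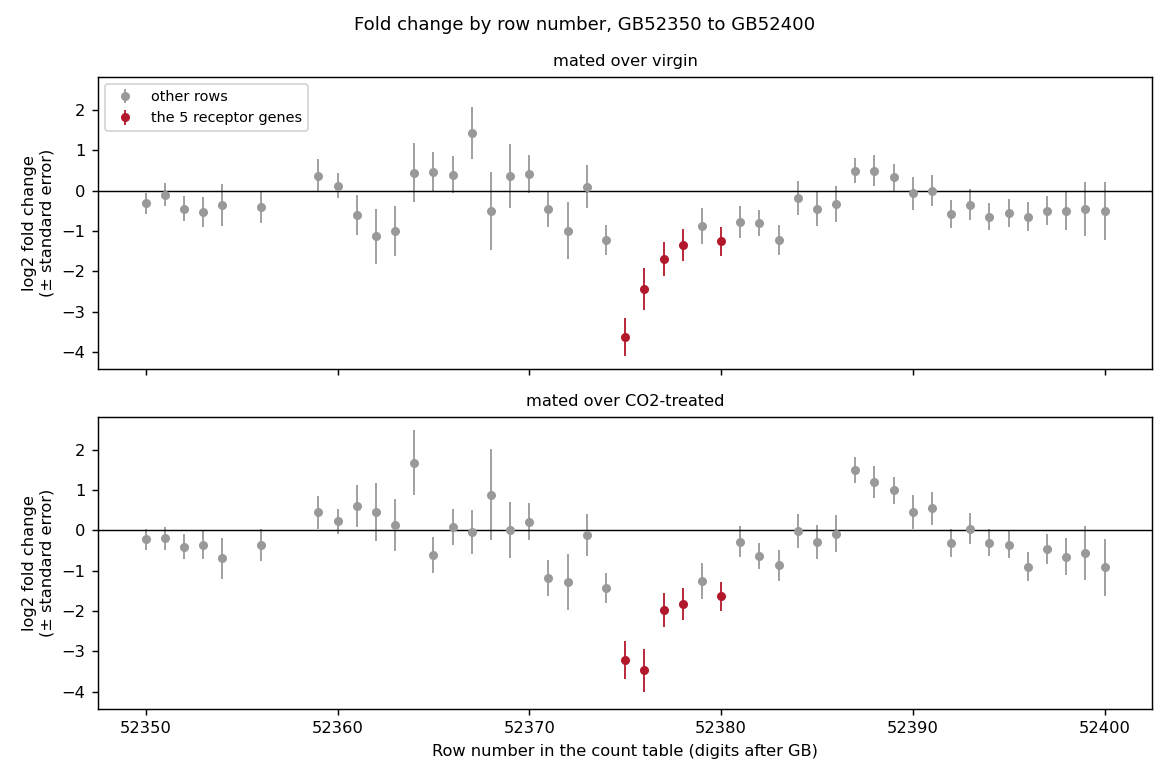
Log2 fold change with its standard error by identifier number from GB52350 to GB52400, for mated over virgin queens (upper panel) and mated over CO2-treated queens (lower panel); red points are the 5 receptors and grey points the other genes tested. The lowest values, -3.63 in the upper panel and -3.48 in the lower, belong to GB52375 and GB52376.

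Other receptor genes named by the study gave no uniform direction. These 5 genes were picked by the study from these queens, so their values are not independent evidence. In mated over virgin queens 3 of 5 had a negative log2 fold change and 0 passed by edgeR, and in mated over CO2-treated queens 2 of 5 were negative and 0 passed. Before adjustment 3 and 2 of them were below 0.05, and DESeq2 called 1 in each. Among all 13038 genes tested, 2072 and 1805 were below 0.05 before adjustment in these contrasts, and DESeq2 called 640 and 421. GB40665, matched to Or49a, came closest at -2.60 over virgin queens (adjusted p = 0.0508). GB48703, a further gene matched to Or85b, was at -3.09 over CO2-treated queens (adjusted p = 0.0699). GB50001 and GB50053, both matched to Or13a as GB52377 is, had positive log2 fold changes of 1.33 and 0.89 over virgin queens (adjusted p = 0.198 and 0.710 by edgeR). The virgin queens were far apart for GB50053: queens 1, 2, 4 and 6 had 0.205, 0, 8.87 and 20.9 CPM. Mated queens had 7.21 to 24.3 CPM, so the groups overlapped and the sign is uncertain.

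Odorant binding proteins are small secreted proteins that carry odours and other ligands in the fluid around sensory neurons, and some are made outside the antenna. Of the 6 named by the study from these queens, 1 fell and 2 rose in mated over virgin queens by edgeR. Among all 13038 genes tested there, 157 were called, 21.02% of them lower. Obp4 (GB53372) averaged 121 CPM in mated and 771 CPM in virgin queens (log2 fold change -2.67, adjusted p = 0.0139 by edgeR). Obp17 (GB46226) averaged 156 CPM in mated and 16.8 CPM in virgin queens (3.22, adjusted p = 0.0491). Obp14 (GB46223) averaged 1346 CPM in mated and 13.4 CPM in virgin queens (6.66, adjusted p = 0.0437). None of the 6 passed by edgeR in mated over CO2-treated queens, where the lowest adjusted p was 0.0603. There, 3 were below 0.05 before adjustment and DESeq2 called 3. Among all 13038 genes tested in that contrast, edgeR called 86, 1805 were below 0.05 before adjustment and DESeq2 called 421. In CO2-treated over virgin queens 0 of the 6 passed by edgeR, 0 were below 0.05 before adjustment and DESeq2 called 0.

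The genes closest to the mean log2 level of the 5 receptors over the 12 queens were GB48153, GB42552, GB42553, GB51434 and GB52791, with Pearson correlations of 0.95, 0.94, 0.93, 0.93 and 0.91 among 10293 genes compared. With group means removed, the correlations were 0.80, 0.81, 0.76, 0.79 and 0.43 in the same order. These genes were picked by likeness over the same queens, so lower levels in mated queens were partly built into the choice. GB48153 and GB51434 passed in neither contrast with mated queens. Their adjusted p was 0.139 and 0.112 over virgin and 0.0730 and 0.110 over CO2-treated queens by edgeR. The consecutive GB42552 and GB42553 passed in both. GB42552 averaged 1.42 CPM in mated, 8.97 CPM in CO2-treated and 12.2 CPM in virgin queens. Its log2 fold change was -3.07 over virgin (adjusted p = 0.00500) and -2.63 over CO2-treated queens (adjusted p = 0.0115 by edgeR). GB52791 also passed, at -1.61 over virgin (adjusted p = 0.0212) and -1.63 over CO2-treated queens (adjusted p = 0.0260).

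Marker genes of other cell types were measured in the same libraries. The 7 photoreceptor markers summed to 65.8 to 236 CPM in mated, 82.6 to 177 in CO2-treated and 153 to 821 CPM in virgin queens. In mated over virgin queens all 7 were lower, with 0 past the threshold by edgeR, 5 below it before adjustment and 2 called by DESeq2. In CO2-treated over virgin queens all 7 were also lower, with 0, 5 and 0 in the same order. Among all 13038 genes tested, these counts were 157, 2072 and 640 over the first contrast and 2, 758 and 20 over the second. In mated over CO2-treated queens 3 of the 7 markers were lower and 4 higher. The 9 genes listed as markers of antennal support cells encode odorant binding and chemosensory proteins, and some binding proteins are made outside the antenna. They summed to 4349 to 9532 CPM in mated, 1745 to 3550 CPM in CO2-treated and 1890 to 5650 CPM in virgin queens. In mated queens GB52324 averaged 5077 CPM and Obp14 1346 CPM. Over virgin queens 2 of the 9 had a negative and 7 a positive log2 fold change, so the sum does not measure a cell type. Of these 9, 6 are the binding proteins above. By edgeR 4 rose and 1 fell in mated over virgin queens, where 157 of the 13038 genes tested were called. The 2 haemocyte markers summed to 843 to 2647 CPM in mated, 775 to 3328 CPM in CO2-treated and 319 to 1446 CPM in virgin queens. The part of these cell types in the receptor differences was not tested, and defining markers of neurons, glia and Orco were not analysed here.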

How the data were processed

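Single-end reads from 12 queen brains were trimmed by the authors with Trimmomatic, cleared of ribosomal RNA with SortMeRna, aligned with TopHat to the honey bee assembly Amel 4.5 and counted per gene with SAMtools idxstats. The deposited values used here are these raw counts per gene; a second deposited table of scaled values was not used. How the few reads that fitted several places were treated, whether strand was used and which library ran on which lane are not given in the sources used here.

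A gene was kept where its counts in the 12 libraries summed to 10 or more (13038 of 15314, all 5 receptors among them). They were tested with the quasi-likelihood F-test of edgeR 4.0.16 in R 4.3.3 on all 12 queens with TMM factors (0.556 to 1.37), in the 3 contrasts of groups. P-values were two-sided and adjusted by Benjamini-Hochberg over all genes, with a threshold of 0.05. Intervals are 95%. CPM values were computed with TMM factors, without a prior count; correlations used log2 levels with a prior count of 2, and the closest genes were the 5 with the highest Pearson correlation among genes of average log2 CPM of at least 1. A floor of 3 counts was worth 0.134 to 0.271 CPM, and covers counting error only.

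The genes named are the 5 receptors, genes numbered GB52350 to GB52400, the other receptors and binding proteins that the study lists, marker lists of photoreceptor cells, fat body and haemolymph, haemocytes and antennal support cells, and the 5 closest genes. Members and lists were chosen with earlier results of these data known. Symbols came from RefSeq (Amel_HAv3.1) by accession, which matched 12 of 31 listed genes and 0 of the 5 receptors; Drosophila matches are those of the study. Queen numbers name different animals in each group and were not used to pair queens in the main fit. Whether equal numbers mark a shared handling is not given in the sources used here. An unexplained tag, br, is also carried by 4 titles. Alternatives were DESeq2 1.42.0, edgeR's exact test, other scalings, other filters, fits of 2 groups, a block on queen number, leaving out each queen, and, added after the data were seen, a robust fit and fits with the br tag as a term or without the tagged libraries.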

Additional observations from a re-analysis of the deposited data

How the results depend on the processing

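In the alternatives tried, the log2 fold changes of the 5 receptors kept a negative sign in mated over virgin and mated over CO2-treated queens, and counts of calls moved. DESeq2 called 5 receptors over virgin and 5 over CO2-treated queens, against 2 and 2 in the edgeR fit. The exact test called 3 and 5 with tagwise dispersions and 4 and 5 with 1 common dispersion. Total counts without TMM gave 5 and 4. A minimum of 10 counts in every library gave 0 and 0, with GB52377 the 1 receptor still tested. A fit of only the 2 groups compared gave 1 and 2. A replicate block on queen numbers, which name different animals in each group, gave 1 and 0. The mean correlation of deviations was 0.17 in 7 pairs of the same number and -0.03 in 41 others. Deviations were taken from group means, which ties these values to each other, so they cannot decide whether numbers pair queens. Leaving out 1 queen gave 1 to 4 in each. The 8 libraries without the br tag gave 2 and 0, and the tag as a term 3 and 2. CO2-treated over virgin queens gave 0 receptors throughout. The log2 fold change of GB52375 there was -0.66 to 0.093 when 1 queen was left out, and was positive without virgin replicate 2.

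Among all genes the calls were 157, 86 and 2 over the 3 comparisons in the order of mated over virgin, mated over CO2-treated and CO2-treated over virgin. DESeq2 gave 640, 421 and 20, the tagwise exact test 505, 294 and 18, and the common dispersion 829, 627 and 151. Total counts gave 4398, 97 and 0, the fit of 2 groups 44, 97 and 0, and the replicate block 177, 10 and 0. The libraries without the br tag gave 97, 5 and 0, the tag as a term 255, 78 and 1. The strictest filter gave 115, 62 and 1, and leaving out 1 queen 28 to 279, 18 to 179 and 1 to 2. The cause of these changes was not tested. Receptors had 3 to 56 counts per mated queen, which limits the precision of their levels.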

Other observations

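GB52387, GB52388 and GB52389, close in number to the receptors, had log2 fold changes of 1.49, 1.19 and 0.99 in mated over CO2-treated queens. In mated over virgin queens they were at 0.50, 0.49 and 0.33, and in CO2-treated over virgin queens at -0.99, -0.70 and -0.66. None passed an adjusted p of 0.05 by edgeR in any of the 3 comparisons. They were chosen after their values were seen, and have no annotation in the sources used here.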
